A study of Mus musculus with 18 samples.

Results

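Messenger RNA of 8 genes that govern how the liver cell takes up sugar into metabolism was followed in mouse hepatocytes of both ends of the liver lobule, from a sucrose-rich meal into a long fast. The genes are Gckr, Pfkl, Pfkfb1, Pklr, Khk, Tkfc, Mlxipl and Txnip. They were taken by symbol from the 28030 genes of the deposited count table, and all 8 were among the 12477 genes with enough counts to be tested. At 24 h without food, Pklr had fallen 10.1-fold in pericentral and 5.97-fold in periportal hepatocytes, Tkfc 6.41-fold and 3.61-fold, and Mlxipl 2.49-fold and 2.07-fold. Txnip had risen 3.65-fold and 3.66-fold, with a wide spread between libraries. Khk instead rose 1.99-fold at 8 h in periportal hepatocytes. Pfkfb1 was the gene with the higher pericentral level, Pfkl did not pass the test in any comparison, and Gckr was close to 0 throughout in the deposited estimates.

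All mice were wild-type C57BL/6J males aged 12 weeks on normal chow. They had been trained for 3 days to fast for 16 h overnight and eat for 8 h by day, and on the last day received food together with drinking water holding 20% sucrose. The fed mice were killed at clock hour 13 after 4 h of this feeding, the 8 h group at clock hour 21 and the 24 h group at clock hour 13 of the following day. Pericentral (PC) hepatocytes, next to the central vein, and periportal (PP) hepatocytes, where blood enters, were isolated with digitonin. This detergent, perfused from one end of the lobule, permeabilises the hepatocytes it meets first and leaves those of the far end to be collected. Each of the 6 groups of zone and state held 3 libraries. The labels do not say whether libraries with one replicate number came from one mouse or one day, so p-values measure the spread between these libraries. The 8 h groups differ from the others in both fasting and clock hour, which cannot be told apart.

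As background, Gckr encodes a regulatory protein of the hepatocyte nucleus that restrains the first step of glucose use when glucose is low and releases it when glucose or fructose arrives. Phosphofructokinase (Pfkl is its liver form) then commits the sugar to glycolysis, under control of a signalling sugar bisphosphate that the bifunctional enzyme of Pfkfb1 makes and breaks down. Pyruvate kinase, from Pklr, carries out the last step. Fructose, one of the sugars of sucrose, goes around the phosphofructokinase step: ketohexokinase (Khk) phosphorylates it, and triokinase (Tkfc) phosphorylates the glyceraldehyde that arises from it. Mlxipl encodes ChREBP, a transcription factor that is activated by sugar phosphates and binds paired E-box letters, classically in the Pklr promoter. Txnip encodes an arrestin-like protein that restrains glucose uptake and is also known as a ChREBP target.

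The letters that ChREBP is known to bind were looked for in the promoter windows of RefSeq (GRCm38.p6, 250 bases before to 50 after each transcription start). All 8 genes had a window, 13 windows in all. An inverted pair (CACGNG, then any 5 bases, then CNCGTG) was present in a window of Pklr and a direct pair (CACGNG, then any 5 bases, then CACGNG) in the window of Txnip. Of the 32851 windows of all genes, 0.0457% held the inverted pair and 0.0487% the direct pair on either strand. Among the windows of tested genes the shares were 0.0569% and 0.0731%. The first 190 bases of both windows follow on the plus strand, from chr3:89136373-89136562 for Pklr and chr3:96557707-96557896 for Txnip, with the matched pair in capitals.
Pklr: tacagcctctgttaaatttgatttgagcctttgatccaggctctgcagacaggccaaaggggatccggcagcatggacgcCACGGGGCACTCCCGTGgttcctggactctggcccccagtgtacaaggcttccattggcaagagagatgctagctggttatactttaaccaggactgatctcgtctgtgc
Txnip: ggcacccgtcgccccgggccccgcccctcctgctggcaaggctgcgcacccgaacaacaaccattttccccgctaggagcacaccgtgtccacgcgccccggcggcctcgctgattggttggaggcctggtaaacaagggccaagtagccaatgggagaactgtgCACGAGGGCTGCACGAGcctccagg
The Pklr pair begins 170 bases before the start of that window's transcript and the Txnip pair 85 bases before. The single E-box CACGTG, held by 7.15% of windows and 9.6% of those of tested genes, was present in Khk (71 bases before the start) and in 1 of the Mlxipl windows (98 bases before). The windows of Tkfc, Gckr, Pfkl and Pfkfb1 held none of these letters. These are matches of letters in these windows, and binding was not measured. Pklr and Txnip, the genes with the paired letters, moved in opposite directions during the fast.

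Levels are given as CPM, estimated counts brought to a common library total with a TMM factor that corrects for differences in composition, and a gene is said to be called, or to rise or fall, where its adjusted p in the quasi-likelihood test of edgeR was under 0.05. Libraries held 18359911 to 26384358 estimated counts. Zone labels were checked on marker genes. The summed level of 7 pericentral markers was 9456 to 18580 CPM in PC libraries and 422 to 2050 CPM in PP libraries, and that of 6 periportal markers 360 to 2287 CPM in PC and 3927 to 6457 CPM in PP libraries. The upper PC value of 2287 CPM belonged to replicate 2 of the 24 h fast, where the others of its group had 1041 and 1058 CPM. In that library the pericentral marker Glul was at 111 CPM, against 928 and 707 CPM in the others. Slc1a2 was at 8.82 CPM there, against 241 and 256 CPM, and Oat at 257 CPM, against 1055 and 1158 CPM. Cyp2e1, which makes up most of the pericentral sum, was at 10270 CPM, against 13000 and 16060 CPM. The library was the lowest of its group for all 7 pericentral markers. It therefore stands apart from its group, and results that involve PC at 24 h are also given without it where that ends a call. Of 5 markers of all hepatocytes, 4 were matched. Their sum was 53650 to 94260 CPM in PC and 106500 to 179200 CPM in PP libraries. Alb alone was at 40030 to 79370 CPM in PC and 93000 to 159600 CPM in PP. Markers of other liver cells were low: the summed levels were 2.97 to 29.5 CPM for 6 endothelial markers, 0.651 to 21.4 CPM for 6 markers of Kupffer cells and leukocytes, 0.696 to 14.7 CPM for 6 stellate markers and 19.3 to 56.7 CPM for 5 cholangiocyte markers, of which Epcam was at 0 in all libraries. The sum of 5 erythroid markers was 32.0 to 92.2 CPM, with Alas2 alone at 29.2 to 66.5 CPM. Those sums were apart in the fed state (45.6 to 55.1 in PC, 58.8 to 81.7 CPM in PP) and at 8 h (57.1 to 66.7 in PC, 45.3 to 55.9 CPM in PP). In the fed state the sums of these 4 lists did not overlap between zones and were higher in PP (for endothelial markers 8.59 to 10.4 against 2.97 to 4.96 CPM). The cholangiocyte sums were also apart and higher in PP at 8 h (44.2 to 56.2 against 27.8 to 37.6 CPM) and at 24 h (32.8 to 52.5 against 19.3 to 23.4 CPM). They came almost wholly from Krt7, Sox9 and Spp1, with Krt19 at 0.506 CPM or less in every library. The part of these cells in the zone differences below was not tested. In bulk samples, fewer cells of a type and less RNA per cell cannot be told apart.

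**Figure D1:**
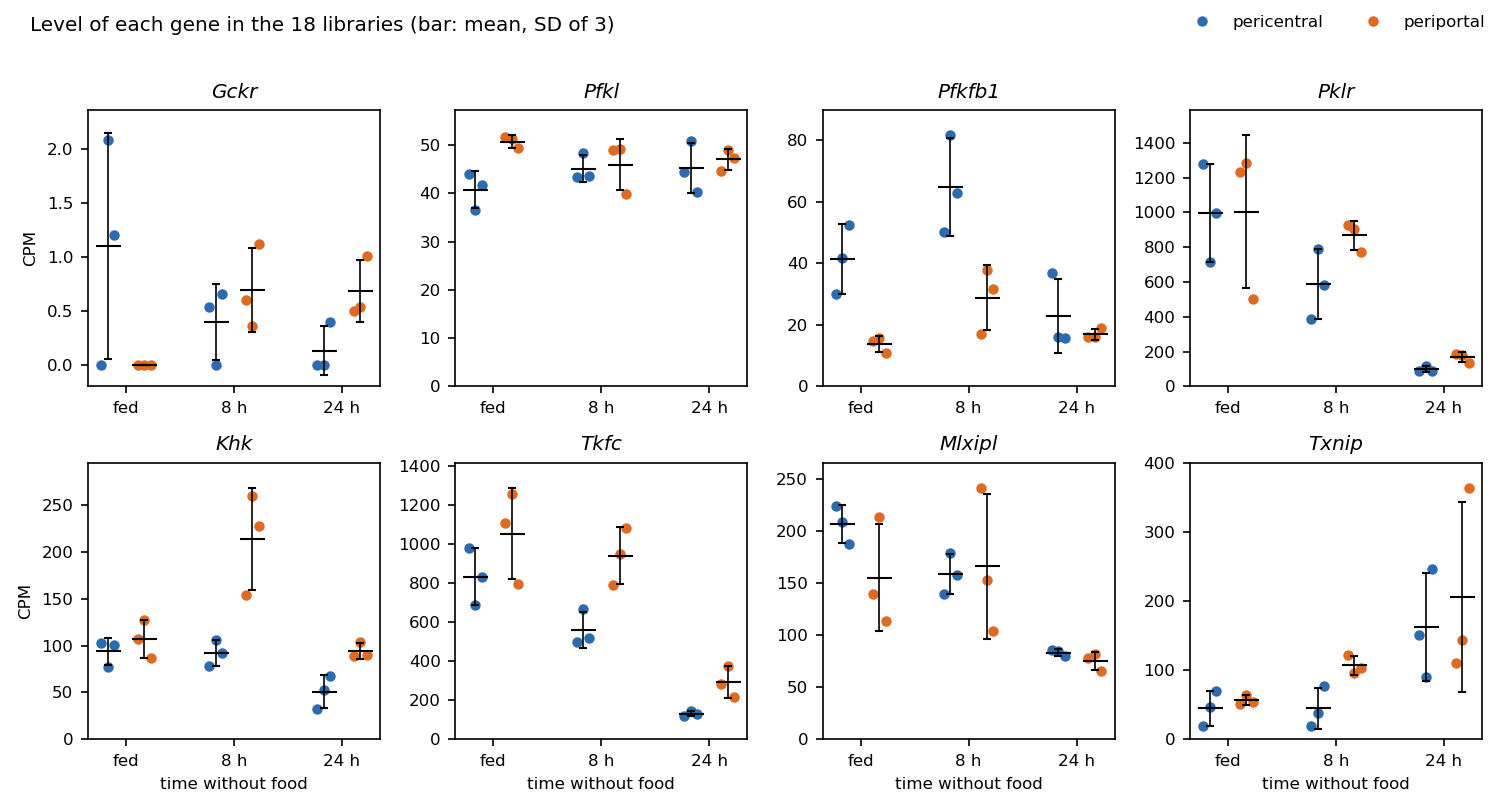
CPM (y axis, linear) of each gene in the 18 libraries by time without food (x axis). Points are libraries (blue, pericentral; orange, periportal), and black bars show the mean and SD of 3. Pklr and Tkfc drop between 8 h and 24 h in both zones, Khk is highest at 8 h in periportal libraries (154 to 260 CPM), and Gckr does not exceed 2.09 CPM.

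Gckr, on chromosome 5 (GRCm38 5:31297443-31327314, plus strand), was barely detected. Fed PC libraries had 0, 2.09 and 1.21 CPM, and all 3 fed PP libraries were at 0. At 8 h the values were 0.532, 0 and 0.657 CPM in PC and 0.606, 0.356 and 1.12 CPM in PP. At 24 h they were 0, 0 and 0.395 CPM in PC and 0.503, 0.540 and 1.01 CPM in PP. The highest single library held 53 estimated counts, and 7 of the 18 libraries were at 0, which in shared-out counts can also be a failed estimate. All 6 fasted PP libraries thus lay above the 3 fed ones, at about 1 CPM or less. The adjusted p was 0.0588 between the fed zones, 0.066 for PP at 8 h and 0.0554 for PP at 24 h against fed. All 3 crossed the threshold with DESeq2 (0.0124, 0.0184 and 0.0164) and without fed PC replicate 1 (0.0175, 0.0255 and 0.0209). The first and the last also did so without PC replicate 2 of the 8 h fast (0.0446 and 0.0424) and without PC replicate 3 of the 24 h fast (0.0492 and 0.045), and the last with only its 2 groups in the fit (0.00399). No fold is given against a group listed at 0. Gckr is known as a gene of hepatocytes, and the values given are those of the deposited counts. How transcripts were summed to genes is not given, and these estimates may miss transcripts of Gckr, which was not tested. The low values are therefore not read as the Gckr mRNA level of these cells.

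Pfkl, on chromosome 10 (10:77986947-78010083, minus strand), was the most even of the 8 genes. Its 18 libraries lay between 36.6 and 51.7 CPM, a 1.41-fold range. Fed PC libraries had 44.1, 36.6 and 41.7 CPM and fed PP libraries 51.7, 51.3 and 49.3 CPM, which do not overlap. The log2 difference of 0.31 (SE 0.10) had an adjusted p of 0.0772, and 0.0484 with DESeq2. In the fasted groups the means were between 45.1 and 47.1 CPM, with overlapping zones. Changes with fasting were between -0.14 and 0.15 on the log2 scale, each with an SE of 0.10.

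Pfkfb1, on the X chromosome (X:150588229-150643878, plus strand), had its highest levels in PC hepatocytes at 8 h. Fed PC libraries had 30.1, 41.6 and 52.6 CPM, and fed PP libraries 14.8, 15.7 and 10.9 CPM. All fed PC libraries were above all fed PP ones, a 3.00-fold difference (log2 -1.59 for PP over PC, SE 0.35, adjusted p 0.0114). Without fed PP replicate 3 this was -1.45 with an adjusted p of 0.0595. At 8 h the PC libraries had 50.1, 81.6 and 62.7 CPM and the PP libraries 17.2, 37.8 and 31.7 CPM, again without overlap, but the adjusted p of the difference was 0.0561 (log2 -1.17, SE 0.34). It was 0.0153 without PC replicate 1 of the 24 h fast, a library outside this comparison, and 0.00547 with DESeq2. At 24 h the PC libraries had 36.8, 16.1 and 15.6 CPM and the PP libraries 16.0, 16.0 and 19.0 CPM, and the zones overlapped. Over the 3 states together the PP level was lower by a log2 of -1.06 (SE 0.20, adjusted p 0.00156).

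Between feeding states, only the PC fall of Pfkfb1 from 8 h to 24 h was called. From fed to 8 h the log2 change was 0.64 (SE 0.34, adjusted p 0.247) in PC and 1.07 (SE 0.35, adjusted p 0.0565) in PP, where the 3 fasted libraries were all above the fed ones. The PP value was called without PP replicate 1 of the 8 h fast (adjusted p 0.021), without PC replicate 1 of the 24 h fast (0.0178) and with DESeq2 (0.00807). From 8 h to 24 h the PC level fell by 1.5 on the log2 scale (SE 0.35, adjusted p 0.0152), a 2.83-fold drop. That PC call was lost without PC replicate 2 of the 8 h fast (adjusted p 0.0583), without PC replicate 2 or 3 of the 24 h fast (0.0654 and 0.0742) and with only the 2 groups in the fit (0.0858). In PP the change from 8 h to 24 h was -0.77 (SE 0.35, adjusted p 0.214). At 24 h neither zone differed from fed by a called amount (log2 -0.86 in PC, adjusted p 0.0919, and 0.30 in PP, adjusted p 0.611), though the PC value was called without PC replicate 1 of the 24 h fast (0.00713) and with DESeq2 (0.0328).

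Pklr, on chromosome 3 (3:89136142-89146784, plus strand), had the largest fall of the 8. Fed PC libraries had 1280, 715 and 999 CPM, and fed PP libraries 1233, 1282 and 500 CPM, so the zones overlapped, with PP replicate 3 lowest. At 8 h the values were 390, 790 and 582 CPM in PC and 929, 904 and 774 CPM in PP. At 24 h they were 90.7, 119 and 87.7 CPM in PC and 188, 181 and 136 CPM in PP. Every 24 h library was below every fed or 8 h library of either zone. The log2 change from fed to 24 h was -3.33 in PC (SE 0.35, adjusted p 1.6e-05) and -2.58 in PP (SE 0.34, adjusted p 0.000115). Most of it came after 8 h: from 8 h to 24 h the change was -2.57 in PC (adjusted p 0.000509) and -2.37 in PP (adjusted p 0.000943). From fed to 8 h it was -0.76 in PC (SE 0.32, adjusted p 0.133) and -0.21 in PP (SE 0.32, adjusted p 0.731), and the PC value was called only without fed PP replicate 3 (adjusted p 0.0436). Without PC replicate 2 of the 24 h fast, the PC change from fed to 24 h was -3.49 (adjusted p 9.95e-05). At 24 h the zones did not overlap, PP over PC being 0.77 on the log2 scale (SE 0.32, adjusted p 0.232). This 24 h difference was called only with these 2 groups alone in the fit. Over the 3 states PP over PC was 0.45 (SE 0.18, adjusted p 0.105). That value was called with DESeq2 (0.0415) and without fed PP replicate 3 (0.0123).

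In the GENCODE M21 annotation the Pklr gene runs into Hcn3, a channel subunit gene on the opposite strand (3:89146074-89160196, minus strand), and 711 exon bases, 22.0% of those of Pklr, are shared. Hcn3 went from 114 ± 53.0 CPM (SD, n = 3) fed to 38.6 ± 18.7 at 8 h and 5.03 ± 1.24 at 24 h in PC, and from 92.1 ± 56.0 to 64.5 ± 8.66 and 10.7 ± 1.84 in PP. Its log2 change at 24 h was -4.51 in PC (SE 0.57, adjusted p 0.000118) and -3.10 in PP (SE 0.53, adjusted p 0.00123). Whether the counting used strand is not given in the sources used here, so reads from the shared bases cannot be told apart. Txnip likewise shares 606 exon bases, 19.4% of its own, with the antisense gene Gm15441, and Mlxipl 235 bases, 4.24%, with the antisense gene Gm43500. Neither antisense gene is in the deposited count table, so their levels are not known here. Their part in the Txnip and Mlxipl values, the 24 h changes included, was not tested.

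Khk, on chromosome 5 (5:30921431-30931248, plus strand), was highest in PP hepatocytes at 8 h. Fed libraries had 103, 77.6 and 101 CPM in PC and 107, 128 and 87.1 CPM in PP. At 8 h the PC libraries had 78.1, 106 and 91.6 CPM, whereas the PP libraries had 154, 260 and 228 CPM, above every other library of the series. The PP rise from fed was 1.0 on the log2 scale (SE 0.24, adjusted p 0.0113), and 0.83 (adjusted p 0.0527) without PP replicate 2 of the 8 h fast. At 24 h the PC libraries were at 31.8, 52.8 and 67.0 CPM and the PP libraries at 88.9, 104 and 90.03 CPM. PP thus returned to the fed range, a fall from 8 h of 1.18 on the log2 scale (SE 0.24, adjusted p 0.00943). PC fell below it, by 0.89 against fed (SE 0.24, adjusted p 0.0155) and by 0.86 against 8 h (SE 0.24, adjusted p 0.0348).

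These PC changes of Khk rest on few libraries. The fall against fed was not called without fed PC replicate 1 or 3 (adjusted p 0.0508 for each) nor with only the 2 groups in the fit (0.0629). The fall against 8 h was not called without PC replicate 1, 2 or 3 of the 8 h fast (0.0531, 0.109 and 0.0641) nor without PC replicate 1 or 2 of the 24 h fast (0.0853 and 0.0804), without the filter on low counts (0.0656) or with only the 2 groups in the fit (0.118). Between the zones, Khk was higher in PP by 1.22 at 8 h (SE 0.24, adjusted p 0.00542). Its PP level exceeded the PC level by 0.90 at 24 h (SE 0.24, adjusted p 0.0473) and by 0.77 over the 3 states (SE 0.14, adjusted p 0.000827). The 24 h call is marginal and was lost under 16 of 24 alternatives, 14 of which left out 1 library, with adjusted p up to 0.162 (without PP replicate 2 of the 24 h fast) and at 0.0989 without PC replicate 2. In the fed state the log2 difference was 0.20 (SE 0.24, adjusted p 0.717).

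Tkfc, on chromosome 19 (19:10587791-10605654, minus strand), was abundant in the fed liver and fell in both zones. Fed libraries had 981, 687 and 828 CPM in PC and 1108, 1254 and 797 CPM in PP. At 8 h they had 497, 665 and 516 CPM in PC and 788, 951 and 1081 CPM in PP. At 24 h they had 118, 144 and 127 CPM in PC and 284, 376 and 215 CPM in PP. As for Pklr, the 24 h libraries did not overlap with any earlier one. From fed to 24 h the log2 change was -2.68 in PC (SE 0.22, adjusted p 1.12e-06) and -1.85 in PP (SE 0.21, adjusted p 2.72e-05), and from 8 h to 24 h it was -2.11 (adjusted p 3.46e-05) and -1.69 (adjusted p 0.000352). At 8 h all PC libraries were already below all fed PC ones, but the change of -0.57 (SE 0.21) had an adjusted p of 0.0798, and 0.0372 with DESeq2.

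The PP level of Tkfc was above the PC level in each state on average, and the difference was called at 8 h and 24 h. The log2 difference between the zones had an SE of 0.21 in each state. It was 0.34 fed (adjusted p 0.389), 0.75 after 8 h (adjusted p 0.0375) and 1.17 after 24 h (adjusted p 0.00363), and without PC replicate 2 of the 24 h fast the last was 1.25 (adjusted p 0.00738). The 8 h call was lost without PC replicate 1 or 3 of the 8 h fast (adjusted p 0.132 and 0.12), without PP replicate 2 or 3 (0.0963 and 0.154) and with only the 2 groups in the fit (0.0725). Over the 3 states the difference was 0.75 (SE 0.12, adjusted p 0.000226).

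Mlxipl, on chromosome 5 (5:135089890-135138382, plus strand), fell between 8 h and 24 h in both zones. Fed libraries had 224, 209 and 188 CPM in PC and 139, 213 and 114 CPM in PP. At 8 h the values were 140, 179 and 158 CPM in PC and 241, 153 and 104 CPM in PP. The PP range spans the fed PP one, with a log2 change of 0.10 (SE 0.25, adjusted p 0.85). In PC all 8 h libraries were below all fed ones, but the change of -0.38 (SE 0.25) had an adjusted p of 0.36. At 24 h all 6 libraries lay between 65.0 and 85.3 CPM, below every other library. From fed to 24 h the log2 change was -1.31 in PC (SE 0.25, adjusted p 0.00176) and -1.05 in PP (SE 0.25, adjusted p 0.00862). From 8 h it was -0.93 in PC (SE 0.25, adjusted p 0.0295) and -1.15 in PP (SE 0.25, adjusted p 0.0133). The PC call from 8 h was lost when any of the 6 libraries compared was left out, with adjusted p from 0.0541 to 0.109 (0.0778 without PC replicate 2 of the 24 h fast), and without the filter (0.0611). The PP call was lost without PP replicate 3 of the 24 h fast (0.0561) or with only the 2 groups in the fit (0.099). No zone difference of Mlxipl passed the test, with log2 values of -0.41, 0.07 and -0.15 in the order of the states, each with an SE of 0.25.

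Txnip, on chromosome 3 (3:96557957-96561883, plus strand), was the member that rose at 24 h. Fed libraries had 18.7, 45.8 and 69.0 CPM in PC and 50.8, 64.6 and 53.3 CPM in PP. At 8 h they had 19.0, 37.8 and 76.4 CPM in PC and 122, 95.9 and 103 CPM in PP. At 24 h they had 150, 90.3 and 246 CPM in PC and 111, 143 and 364 CPM in PP, with replicate 3 highest in both zones. All 24 h libraries were above all fed ones of their zone. The log2 change from fed to 24 h was 1.87 in PC (SE 0.59, adjusted p 0.0367) and 1.87 in PP (SE 0.59, adjusted p 0.0398). Both calls are close to the threshold. In PC the call was lost without fed replicate 1 or 2 (adjusted p 0.121 and 0.0932), without replicate 1 or 3 of the 24 h fast (0.0639 and 0.144), without the filter on low counts (0.0773) and with only the 2 groups in the fit (0.11). In PP it was lost in 12 of 24 alternatives. Without PP replicate 3 of the 24 h fast the change was 1.17 with an adjusted p of 0.202, and leaving out fed PP replicate 1, 2 or 3 gave adjusted p of 0.123, 0.0822 and 0.104. The other libraries whose omission ended this call were the 3 PP ones at 8 h, PC replicate 2 in the fed and the 8 h groups and PC replicate 1 at 24 h, with adjusted p from 0.0505 to 0.0525. It was also lost without the filter (0.0813) and with only the 2 groups in the fit (0.065). PP replicate 3 at 24 h, the library with 364 CPM of Txnip, also had the most globin RNA of its group (Hbb-bs at 21.6 CPM against 0.894 and 1.12) and the highest Kupffer and leukocyte marker sum (21.4 against 2.12 and 9.81 CPM). Their part in the Txnip level was not tested. At 8 h the PP libraries had moved clear of the fed ones and of the PC ones, but neither difference passed (log2 0.93, adjusted p 0.332, and log2 1.27, adjusted p 0.231). The first was called with only its 2 groups in the fit (adjusted p 0.00492). From 8 h to 24 h the PC change was 1.87 (SE 0.59, adjusted p 0.0643). It was called without PC replicate 3 of the 8 h fast (0.0338), without PP replicate 3 of the 24 h fast (0.044) and with DESeq2 (0.0146).

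**Figure D2:**
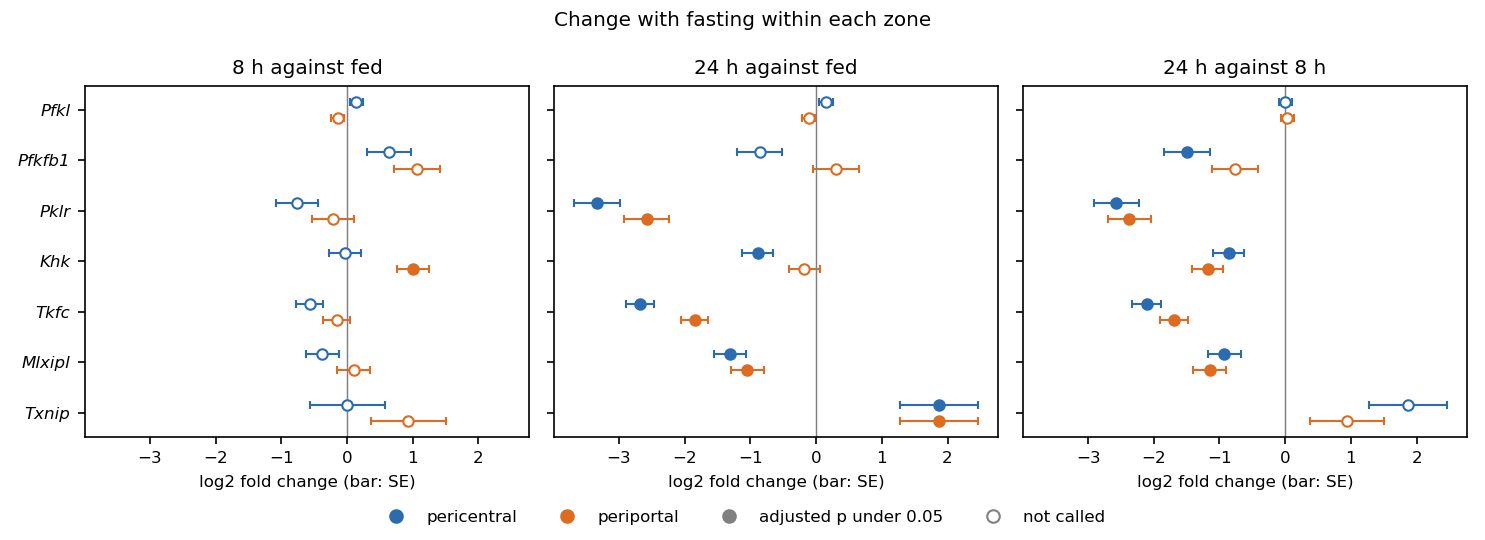
Log2 fold change (x axis, same scale in the 3 panels) of 7 genes between feeding states within each zone, with its SE. Blue is pericentral and orange periportal, and filled points were called. Pklr, Tkfc and Mlxipl lie left of 0 at 24 h against fed in both zones, with Pklr in pericentral hepatocytes at -3.33, and Txnip lies right of 0 at 1.87. Gckr is left out because one of its groups is listed at 0.

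Set against all genes, the 8 were called most often at 24 h. In PC hepatocytes 0 of the 8 were called with edgeR between fed and 8 h (2 at an unadjusted p under 0.05 and 1 with DESeq2), where 13.8% of all genes tested were. Between fed and 24 h in PC, 5 of the 8 were called, against 21.8% of all genes, and between 8 h and 24 h 5 of the 8, against 9.71%. In PP hepatocytes the counts were 1 of 8 at 8 h against 14.4%, 4 of 8 at 24 h against 19.6%, and 4 of 8 between 8 h and 24 h against 7.46%. The comparisons of 8 h and 24 h with fed share the fed libraries. Between the zones, 1 of the 8 was called in the fed state against 8.01% of all genes, 2 at 8 h against 7.14%, 2 at 24 h against 4.17%, and 3 over the 3 states against 20.3%. Several of these shares of all genes depend on single libraries: without PP replicate 3 of the 24 h fast the zones differed in 252 genes at 24 h, where 520 were called with all libraries. With the even or near-absent Pfkl and Gckr among the 8, these are shares of a small list chosen with earlier results known.

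**Figure D3:**
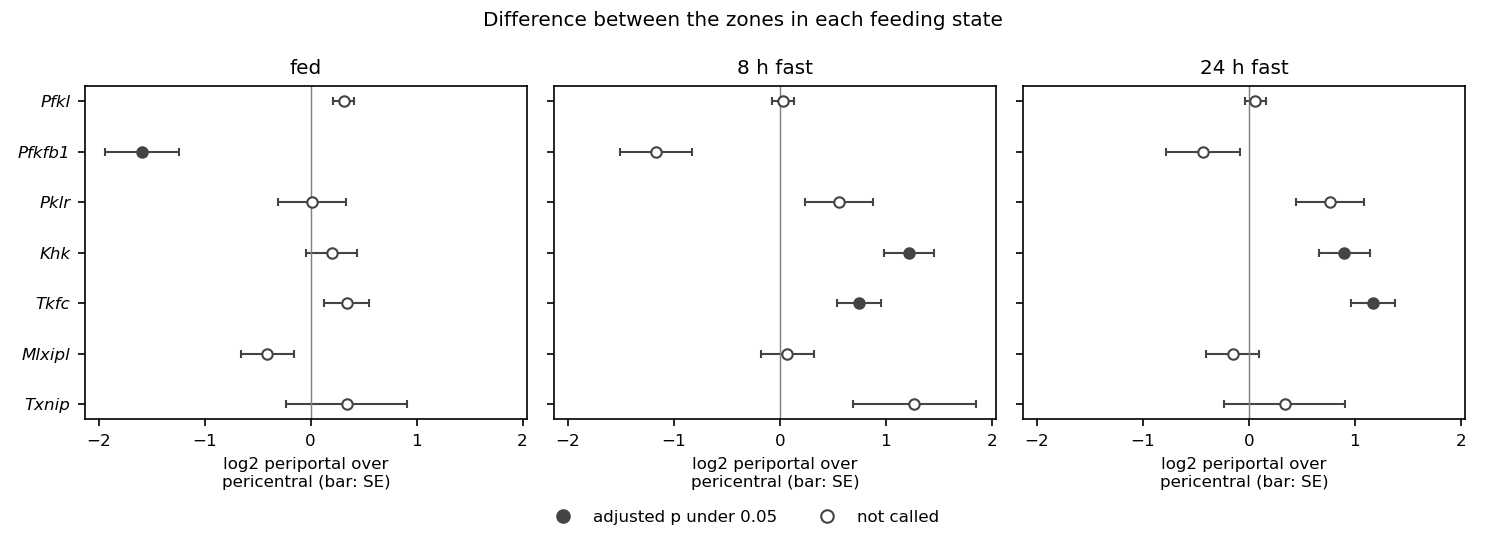
Log2 difference of periportal over pericentral level (x axis, same scale in the 3 panels) for 7 genes in each feeding state, with its SE. Filled points were called. Pfkfb1 lies left of 0 (-1.59 fed), Khk and Tkfc lie right of 0 and were called in both fasted states, and Pfkl and Mlxipl stay within 0.41 of 0.

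Whether fasting acted differently on the zones was tested as the PP change minus the PC change. In the change from fed to 8 h, edgeR called 0 of the 8 (2 at an unadjusted p under 0.05, 0 with DESeq2) and 0% of all genes, of which 680 had an unadjusted p under 0.05 and 6 were called with DESeq2. The Khk difference there was 1.02 on the log2 scale (SE 0.34, unadjusted p 0.00819, adjusted p 0.909). In the change to 24 h, edgeR again called 0 of the 8 (3 at an unadjusted p under 0.05, 0 with DESeq2) against 0.016% of all genes, of which 962 had an unadjusted p under 0.05 and 38 were called with DESeq2. The Tkfc difference was 0.83 (SE 0.29, unadjusted p 0.0121, adjusted p 0.505) and the Pfkfb1 difference 1.16 (SE 0.49, unadjusted p 0.0337, adjusted p 0.6). The zones were therefore not shown to differ in their response for any of the 8, although some calls were made in 1 zone only.

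Per kilobase of exon, the mean level over the 18 libraries was highest for Pklr (192 CPM per kb), then Tkfc (137), Khk (60.4), Txnip (33.1), Mlxipl (25.5), Pfkfb1 (7.83), Pfkl (6.87) and Gckr (0.115). This order did not hold in every group. At 24 h Txnip had the highest mean level per kilobase in both zones, 52.0 CPM per kb in PC and 65.9 in PP. Tkfc was then at 28.1 and 63.2 CPM per kb, Pklr at 30.6 and 52.1, and Khk at 28.1 and 52.5. The PP mean of Txnip at 24 h, 205.8 CPM with an SD of 137.8, includes replicate 3 at 363.8 CPM, against 110.5 and 143.1 CPM in the others. The first place of Txnip in PP rests on that library. The order of the groups also differs between genes. Neighbours in that order did not overlap for Pklr at the step from PC at 8 h to PP at 24 h and from there to PC at 24 h, for Tkfc at the 3 steps from fed PC downwards, and for Mlxipl at the step from fed PP to PC at 24 h. For Khk, PP at 8 h stood clear above the next group, and PC at 24 h clear below. The highest group of Pfkl (fed PP), the lowest of Pfkfb1 (fed PP) and the step of Txnip from PP at 8 h to fed PP were also without overlap. All other neighbours overlapped, among them every step of Gckr.

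Across the 18 libraries, which share the same 6 groups and so are not independent points, Pklr and Tkfc followed each other most closely of the 28 pairs (Pearson r 0.97 of log2 CPM). Pklr with Mlxipl had r 0.87, and Tkfc had r 0.75 with both Mlxipl and Khk. Txnip had negative values with Pklr (r -0.62), Tkfc (-0.57) and Mlxipl (-0.65), and -0.08 with Khk. Pfkfb1 had r 0.28 with Pklr. Among genes of at least 10 CPM on average, the closest to Pklr were Hcn3 (r 0.986), Tkfc (0.967) and Nsmf (0.946). Closest to Tkfc after Pklr and Hcn3 was Pygl, liver glycogen phosphorylase (r 0.95). Khk was closest to Calu (0.9) and to the glycolytic genes Eno1, an enolase (0.893), and Gpi1, glucose-6-phosphate isomerase (0.879). Mlxipl was closest to Leng8 (0.943), Nsmf (0.933) and Fbxo22 (0.907), and Pfkfb1 to Rprd1a (0.898), Bst2 (0.897) and Leprotl1 (0.887). Among the genes closest to Txnip were those of the respiratory chain subunits Cox4i1 (0.876) and Ndufv3 (0.867). For Pfkl and Gckr, which vary little or lie near 0, the best values were 0.756 (Foxq1) and 0.667 (Prpf4b).

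**Figure D4:**
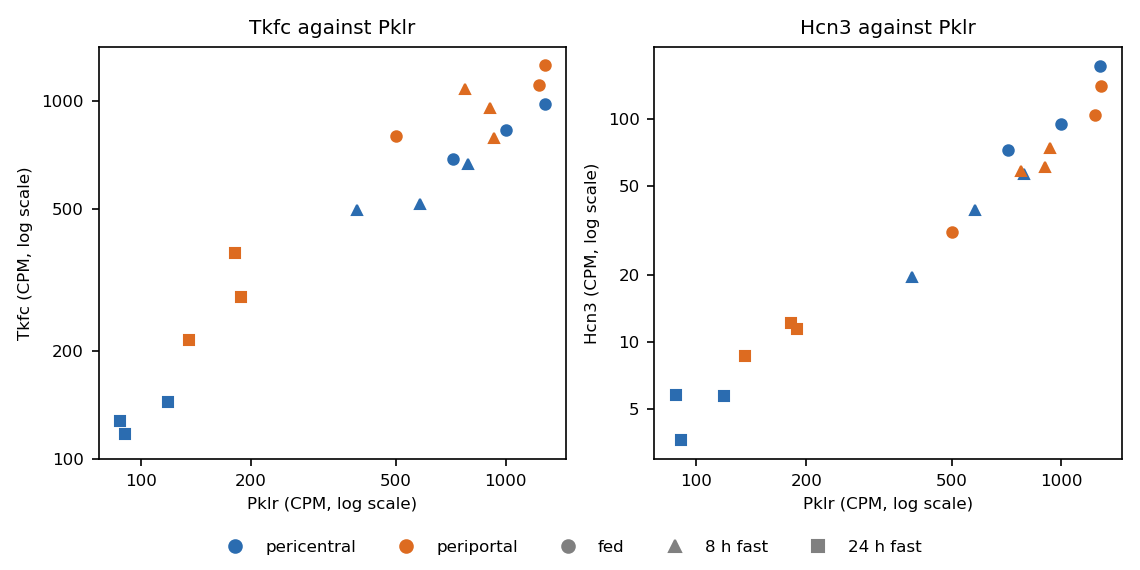
Tkfc (left) and Hcn3 (right) against Pklr in the 18 libraries, in CPM on log axes. Colour gives the zone and symbol the feeding state. The 24 h libraries (squares) form the lower left of both panels, and at 24 h the periportal squares lie above the pericentral ones for Tkfc (215 to 376 against 118 to 144 CPM).

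The other genes of the pathway were counted in 3 lists that leave out the 8 members. Of 21 further glycolysis genes tested, from the hexokinases to lactate dehydrogenase, 7 were called in PC between fed and 24 h: 3 higher (all genes 10.8%) and 4 lower (all genes 11.1%). In PP 4 were called, 1 higher (all genes 9.59%) and 3 lower (all genes 10%). The medians were -0.12 and 0.02 on the log2 scale, where those of all genes were within 0.01 of 0. Gpi1 fell by 1.09 in PC (SE 0.24, adjusted p 0.00402) and by 0.98 in PP (SE 0.24, adjusted p 0.00893), and Pfkfb2, which encodes another form of the Pfkfb1 enzyme, rose by 0.60 in PP (SE 0.14, adjusted p 0.00645). At 8 h 1 of the 21 was called in each zone, lower in both (all genes 6.57% in PC and 6.85% in PP). Averaged over the states, 8 of the 21 were called between the zones, all higher in PP (all genes 10.3% higher and 9.96% lower), among them Eno1 by 0.61 (SE 0.08, adjusted p 2.91e-05).

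Of 10 genes of sugar transport and of the fructose and polyol routes, 1 was called in PC at 24 h, which was higher (all genes 21.8% called in either direction), and 3 were called in PP, 1 higher and 2 lower (all genes 19.6%), with medians of -0.11 in both zones. At 8 h, 3 were called in PC (1 higher and 2 lower, all genes 13.8%) and 4 in PP (1 higher and 3 lower, all genes 14.4%), with medians of -0.33 and -0.19. Over the states, 4 differed between the zones, 3 higher and 1 lower in PP (all genes 20.3%). From fed to 24 h, Slc2a1, a glucose transporter, rose by 0.73 in PC (SE 0.15, adjusted p 0.00202) and 0.51 in PP (SE 0.15, adjusted p 0.0218). Xylb, xylulokinase, fell by 0.67 in PP from fed to 24 h (SE 0.14, adjusted p 0.00269). Sord, sorbitol dehydrogenase, which makes fructose from sorbitol, was lower in PP than in PC by a log2 of -0.57 over the 3 states (SE 0.07, adjusted p 2.81e-05), the opposite zone to Khk and Tkfc.

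The list of 17 genes named carbohydrate response holds genes linked to ChREBP, fatty acid synthesis genes and genes of the pentose phosphate route. Whether each of them responds to carbohydrate was not tested. Of the 17, 12 were called in PC at 24 h (1 higher, all genes 10.8%, and 11 lower, all genes 11.1%). In PP 10 were called (1 higher, all genes 9.59%, and 9 lower, all genes 10%). The medians were -2.23 in PC and -1.58 in PP. Already at 8 h, 10 were called in PC (1 higher, all genes 7.27%, and 9 lower, all genes 6.57%) and 9 in PP (1 higher, all genes 7.56%, and 8 lower, all genes 6.85%), with medians of -1.40 and -0.59. From fed to 24 h, Fasn, fatty acid synthase, fell by 5.79 on the log2 scale in PC (SE 0.47, adjusted p 2.95e-06). Its PC level at 8 h was 51.6 ± 10.01 CPM (SD, n = 3) against 1270 ± 438 fed. Elovl6, a fatty acid elongase, fell by 5.58 in PC from fed to 24 h (SE 0.59, adjusted p 2.81e-05). It was at 77.9 ± 36.0 CPM in PC at 8 h against 1408 ± 682 fed. Thrsp fell by 4.59 in PC from fed to 24 h (SE 0.69, adjusted p 0.000426). In PP the log2 change from fed to 24 h of Srebf1, which encodes an insulin-responsive lipogenic factor, was -3.85 (SE 0.38, adjusted p 1.26e-05). Pklr, in the same libraries, was still at 587 ± 200 CPM in PC at 8 h. Arrdc4, an arrestin-like relative of Txnip, was higher in PP by 0.70 over the 3 states (SE 0.14, adjusted p 0.00179), with a 24 h level of 10.2 ± 1.25 CPM in PC and 14.3 ± 2.54 CPM in PP.

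**Figure D5:**
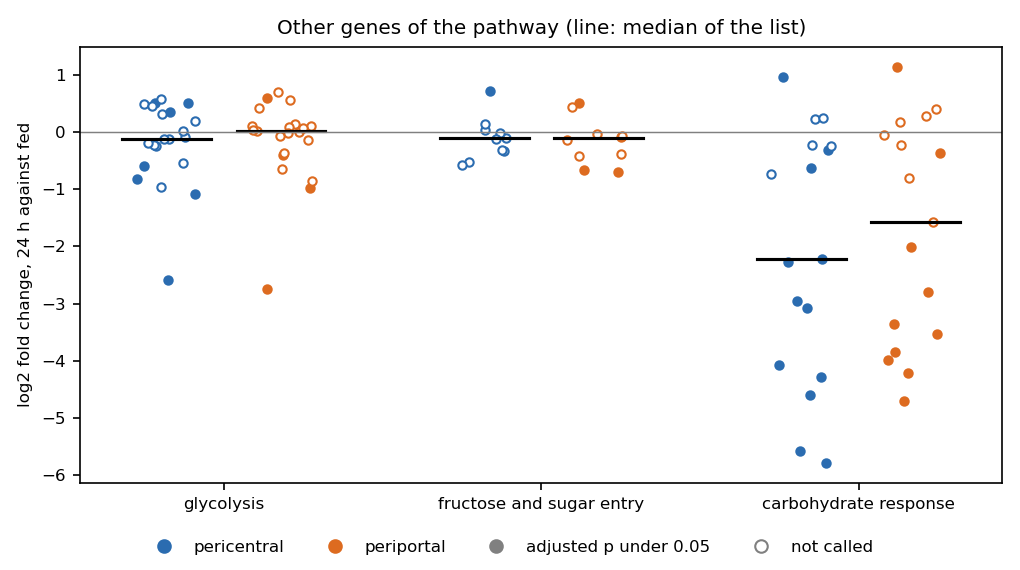
Log2 fold change from fed to 24 h (y axis) of the other genes of the pathway in 3 lists, in pericentral (blue) and periportal (orange) hepatocytes. Each point is a gene, filled where called, and the line is the median of the list. The list named carbohydrate response has medians of -2.23 and -1.58, while the medians of the other lists lie between -0.12 and 0.02.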

How the data were processed

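Estimated counts of 18 libraries were deposited by the authors as a gene table, made with kallisto 0.46.0 and the mm10 genome per the submitters' processing notes. How transcripts were summed to genes, the annotation and the use of strand are not given in the sources used here. Of its 28030 Ensembl identifiers, 27566 were paired with a symbol. Counts were rounded to whole numbers. Genes passing filterByExpr on the 6 groups (12477) were fitted with edgeR 4.0.16 in R 4.3.3 (TMM, robust quasi-likelihood, 1 coefficient per group, all 18 libraries, no covariate), and 12 contrasts were taken. Benjamini-Hochberg adjustment covered the whole set of tested genes, and calls were made under an adjusted p of 0.05. The SE is the log2 fold change divided by the square root of F. CPM use TMM factors, and correlations used log2 CPM after adding a prior count of 2. The precision of every comparison is limited by 3 libraries a group, which differed by more than sampling noise within each group.

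Alternatives were the Wald test of DESeq2 1.42.0 and the edgeR fit with its RLE (relative log expression) factors in place of TMM. Further ones were scaling without the 20 most abundant genes, no filter and only the groups compared. The fit was also run with the replicate number as a block and leaving out each library. The members and lists were chosen with earlier results of these data known. Genes named from a list were the 3 of each list with the largest called change at 24 h in each zone and those with the largest zone difference at a mean of at least 10 CPM; of these 14 genes, 3 enter the counts only, and these and 1 gene of like pattern are not reported here. Positions and exon overlaps are from GENCODE M21 (GRCm38) and promoter letters from RefSeq (GRCm38.p6).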

Additional observations from a re-analysis of the deposited data

How the results depend on the processing

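Of 96 results (8 genes in 12 comparisons), 27 were called, and 16 of these stayed called in every alternative run. There were 24 alternatives, 18 of which leave out 1 library, and 23 for the comparison over the 3 states, which uses all groups. Of the called values, 0 changed sign. The number of the 8 genes called moved by over 1.5 times in some comparisons. With DESeq2 it was 3 between the fed zones, 1 for 8 h in PC and 3 for 8 h in PP; it moved by less in 5 others (3 between the zones at 8 h, 4 over the states, 6 for 24 h and 6 for 24 h against 8 h in PC, and 5 for 24 h in PP). With only the groups compared it was 1 between the zones at 8 h, 3 for 24 h against fed and 3 for 24 h against 8 h in PC, and 2 for 8 h in PP. Without the filter it was 1 between the zones at 24 h and 3 for 24 h against 8 h in PC. Leaving out 1 library gave 0 to 2 between the fed zones, 1 to 3 at 8 h, 1 to 2 at 24 h, 0 to 1 for 8 h in PC, 3 to 5 for 24 h in PC, 2 to 6 for 24 h against 8 h in PC, 0 to 2 for 8 h in PP, 3 to 5 for 24 h in PP, 3 to 4 for 24 h against 8 h in PP and 3 to 4 over the states. The cause was not tested.

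The results that changed sign were not called, but not all lay near 0 with all libraries, among them Gckr between the zones over the states (-1.49), and between the zones at 24 h Pfkfb1 (-0.43) and Txnip (0.34). Without the filter, Txnip from fed to 8 h in PC was 0.0028 and Pfkl from 8 h to 24 h in PC -0.0048; with only the groups compared, Txnip at 8 h in PC was 0.0021 and Gckr from 8 h to 24 h in PP 0.0031. Scaling without the 20 most abundant genes gave -0.0075 for Pklr between the fed zones, and from 8 h to 24 h -8.5e-05 for Pfkl in PC and 0.0025 for Gckr in PP. Leaving out 1 library gave, between the fed zones, -0.21 to 0.33 for Pklr and -0.034 to 0.80 for Txnip; at 8 h, -0.027 to 0.12 for Pfkl and -0.31 to 0.32 for Mlxipl; at 24 h, -0.02 to 0.15 for Pfkl, -0.64 to 0.099 for Pfkfb1 and -0.36 to 0.77 for Txnip; and over the states -1.70 to 0.034 for Gckr. From fed to 8 h it gave -0.14 to 0.078 for Khk and -0.64 to 0.46 for Txnip in PC, and -0.53 to 0.0063 for Pklr and -0.27 to 0.40 for Mlxipl in PP. From 8 h to 24 h it gave -0.087 to 0.08 for Pfkl in PC, and -0.40 to 0.50 for Gckr and -0.062 to 0.082 for Pfkl in PP. The zone difference in the change of Txnip to 24 h ranged from -0.69 to 0.44.

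With the replicate number as a block, the fed zone difference of Pklr was -0.061 and the zone difference in the change of Txnip to 24 h -0.28, both uncalled, and Txnip from 8 h to 24 h in PC was called (adjusted p 0.0189). Libraries with one number did not deviate together: the correlation of their deviations was -0.311 to 0.255, and over 0.1 in 7 of 27 pairs, so the numbers are not taken as pairs. Of all genes, only the groups compared gave 450 called between the zones at 8 h (891 before), 617 for 24 h against 8 h in PC (1212 before) and 413 in PP (931 before), and DESeq2 821 between the zones at 24 h (520 before). Leaving out 1 library gave as few as 614 between the fed zones (PC replicate 2; 640 without PP replicate 1; 1000 before), 525 at 8 h (PP replicate 3; 569 without PP replicate 2) and 252 at 24 h (PP replicate 3; 304 to 332 without PP replicate 2, PC replicate 3 or PC replicate 1). For 24 h against 8 h it gave 534 to 731 in PC (without replicate 1 or 2 at 8 h or 2 or 3 at 24 h) and 335 to 588 in PP (without replicate 2 or 3 of either time), and without fed PP replicate 1 it gave 1081 for 8 h (1798 before) and 1512 for 24 h (2446 before) in PP. Gckr had at most 53 counts in a library, which limits its precision; all 8 genes are limited by 3 libraries a group.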

Other observations

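Other genes share exon bases with the 8 in the GENCODE M21 annotation, and their values are given beside the members. Tkfc overlaps Ddb1 (328 shared exon bases), a DNA damage-binding protein gene on the opposite strand, which was at 231 ± 17.1 CPM fed and 192 ± 4.65 CPM at 24 h in PC and at 269 ± 21.4 and 203 ± 8.05 CPM in PP (SD, n = 3), while Tkfc fell from 832 ± 147 to 130 ± 13.4 CPM in PC. Tkfc also overlaps Cyb561a3 (596 shared bases), which did not exceed 2.23 CPM in any library. Pfkfb1 overlaps Apex2 (123 shared bases), which lay between 5.22 and 9.49 CPM. Of these pairs Ddb1 had the highest correlation with its partner over the 18 libraries (r 0.68), against 0.99 for Hcn3 and Pklr. Their part in the members' values was not tested.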
